A study of Oncorhynchus mykiss with 24 samples.

Results

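The liver response of rainbow trout (Oncorhynchus mykiss, Mt. Shasta strain) to β-naphthoflavone (BNF) in the diet was followed on 4 arrays, out of 24 arrays in the study. The 4 arrays are those titled as BNF. They hold 2 RNA samples from fish fed 500 ppm BNF, out of 12 treated RNA samples in all, and each sample was hybridised once in each dye. The other 5 diets held indole-3-carbinol (I3C) at 500 or 1500 ppm, 3,3'-diindolylmethane (DIM) at 500 or 1500 ppm, or 17β-estradiol (E2) at 5 ppm, with 2 RNA samples each. The labels write BNF, I3C, DIM and E2, read here in their usual meanings. All fish were juveniles aged 12 to 18 months, received a casein-based test diet during 12 days. Sampling followed on day 13, and each diet had 2 tanks of 6 fish. Every array carried the same reference in its other channel, a pool of equal amounts of liver RNA from 12 fish on a diet with 0.15% dimethyl sulfoxide. Which fish stand behind a treated RNA sample is not said, so every p-value rests on how far these RNA samples spread, and that spread may be only technical. The pool counts as 1 control sample, and a test against it leaves out the spread between control fish.

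β-Naphthoflavone is a synthetic flavone used as a model ligand of the aryl hydrocarbon receptor. That receptor sits in the cytoplasm with Hsp90, moves to the nucleus when it binds a ligand, pairs with ARNT and switches on genes of xenobiotic metabolism, of which the CYP1A cytochromes P450 are the classic markers in fish liver. I3C is an indole from cruciferous vegetables that condenses to DIM in the acid stomach, and both are known as weaker ligands of the same receptor. E2 acts through estrogen receptors, which in the liver of egg-laying fish drive the yolk and egg envelope proteins.

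The arrays carried 8736 spots in 4368 pairs of neighbours that were averaged, and each pair is called a feature below. Only 49 features, with 32 gene symbols, have a name in the annotation used here. The remaining features are unnamed here and are given by their spot numbers. Values are log2 ratios of BNF over the pool after each array was centred on its median and the dye swap was averaged. The direction is likely rather than stated: it takes the deposited ratio as Cy3 over Cy5 because the labels put Cy3 in channel 1, and if Cy5 was on top, every higher becomes lower. Features are counted as called where limma, fitted to all 4368 features and 12 RNA samples, gave an adjusted p (Benjamini-Hochberg) under 0.05.

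The BNF arrays were of unequal quality. The 2 spots of a pair correlated across the array at 0.41 and 0.57 in the first BNF sample and at 0.84 and 0.91 in the second, against 0.81 to 0.94 on the arrays of the other diets. One array of the first sample was deposited as a linear ratio, and log2 of it was taken. Within a BNF swap, ratios of treated over pool ran against each other between the dyes (r = -0.22 in the first sample and -0.71 in the second). After the swap was averaged, the 2 BNF samples correlated at r = 0.16 across features. The 2 samples of each other diet correlated at 0.37 to 0.85, and all samples share the pool. The pairs of E2 (0.46) and DIM 500 ppm (0.85) each hold a sample turned as given next, and their r has the opposite sign as deposited. Pairs of the other diets with no turned sample ran from 0.37 to 0.75. Both arrays of E2 sample 1 and of DIM 500 ppm sample 1 ran against the others in their dye pattern and were turned. Their true direction is not settled by the labels. With their deposited signs, 0 features were called in each difference of BNF from I3C 500 ppm, DIM 500 ppm, E2 or the other 5 diets. This limit holds for every such call below, and values with those signs are given for some of them. No I3C 500 ppm array was turned, so the differences of BNF from I3C 500 ppm have the same values under either sign. There only the spread pooled over all diets changes, and with it the calls. No array of BNF was turned.

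BNF changed few features past the test. Of 4368 features, 2 rose against the pool and 0 fell (0.0458% called), and 299 had an unadjusted p under 0.05 (6.85%). Without centring the arrays, where the median of all features was -0.34 rather than 0.010, 2 rose and 39 fell. Leaving out the first or the second BNF sample gave 4 calls each time, all higher, with both of the main calls among them. The mean over the 2 BNF samples spread with an SD of 0.21 across features, and 4 features lay above 1 and 1 below -1. In the other diets that SD was 0.29 for I3C 500 ppm, 0.42 for I3C 1500 ppm, 0.46 for DIM 500 ppm, 0.44 for DIM 1500 ppm and 0.36 for E2. The number of features above 1 and below -1 was 15 and 3 for I3C 500 ppm, the least of the other diets, and 71 and 152 for DIM 500 ppm, the most when both directions are added.

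Single BNF samples went further than their mean. In the first sample 13 features were above 1 and 4 below -1, and in the second 10 were above 1 and 14 below -1. Past 1 in both samples were 2 features on the high side and 1 on the low side, and 1 feature was past 1 in opposite directions. Across all 4 arrays, 193 features kept a single sign after the swap was turned, 82 of them higher and 111 lower. The 95% interval of the mean had a median half-width of 0.36, and it lay wholly within 1 of 0 for 4297 features and within 0.5 of 0 for 2225. For those 4297, a change of more than 2-fold is outside the interval in either direction.

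**Figure D1:**
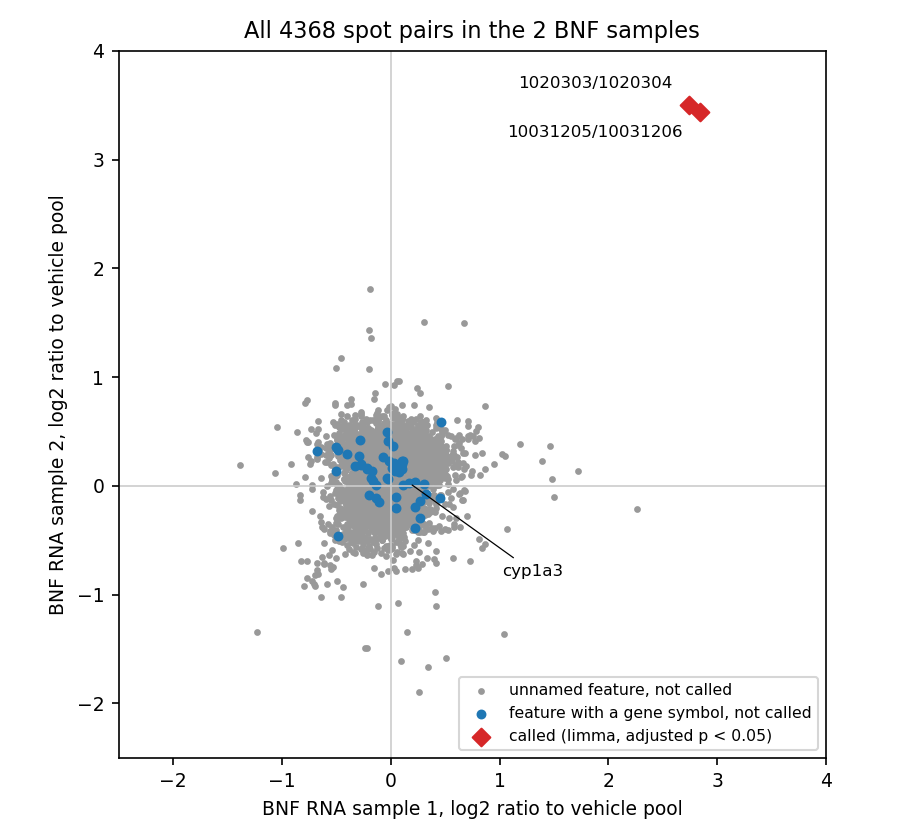
Log2 ratio to the vehicle pool in BNF RNA sample 1 (x axis) against RNA sample 2 (y axis), 1 point for each of the 4368 features. The 2 called features sit alone at the upper right, near 3 in both samples, while the rest form a round cloud around 0 (r = 0.16 over all features) and cyp1a3 lies inside it.

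The feature of spots 10031205 and 10031206 was the strongest response to BNF. Its log2 ratio was 2.84 and 3.44 in the BNF samples (SD 0.42, n = 2), a mean of 3.14 ± 0.18 (limma SE). That is 8.81-fold over the pool with a 95% interval of 6.80 to 11.4 (limma adjusted p = 1.31e-07). The limma SE and interval rest on a spread pooled over all diets, not on the BNF samples alone. The single arrays of the first sample read 3.95 in Cy3 and 1.73 in Cy5, and those of the second 4.05 in Cy3 and 2.83 in Cy5. The 2 spots of the pair were closest on the first Cy3 array (4.04 and 3.86) and farthest apart on the first Cy5 array (1.98 and 1.48). All 4 arrays were thus well above 0, with both Cy3 arrays above both Cy5 arrays.

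The feature of spots 1020303 and 1020304 rose as far. It read 2.74 and 3.51 in the BNF samples (SD 0.54, n = 2), a mean of 3.12 ± 0.25 (limma SE). That is 8.72-fold with a 95% interval of 6.00 to 12.7 (limma adjusted p = 9.87e-06). Its arrays read 2.50 and 2.99 in the first sample and 3.30 and 3.71 in the second, Cy3 before Cy5 in each. Here the Cy5 arrays were the higher ones, so the order of the dyes is not shared with the other called feature. Each of these features was called under every one of 18 other settings, at log2 ratios of 2.28 to 4.53 for spots 10031205 and 10031206 and of 2.74 to 4.51 for spots 1020303 and 1020304. The upper ends, 4.53 and 4.51, come from reading the deposited logs as natural, which rescales every value alike and cannot change a call. No gene name goes with either feature here.

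Both features also stood above the pool in the indole diets. Spots 10031205 and 10031206 read 1.40 and 1.36 in I3C 500 ppm, 2.62 and 3.23 in I3C 1500 ppm, 1.10 and 1.33 in DIM 500 ppm, 1.28 and 1.32 in DIM 1500 ppm, and 0.16 and 0.32 in E2. Spots 1020303 and 1020304 read 0.99 and 1.98 in I3C 500 ppm, 2.93 and 2.82 in I3C 1500 ppm, 0.59 and 1.29 in DIM 500 ppm, 1.003 and 1.28 in DIM 1500 ppm, and -0.16 and 0.60 in E2. At the matched dose of 500 ppm the BNF samples lay above every I3C and DIM sample in both features. Both were chosen as called high in BNF, which favours this order and the differences from other diets given next. Only the I3C 1500 ppm samples, at 3 times the dose, overlapped the BNF samples, and the E2 mean was the lowest of the diets in both.

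At matched dose the difference of spots 10031205 and 10031206 was 1.76 ± 0.25 (SE) over I3C 500 ppm (limma adjusted p = 0.00489) and 1.93 ± 0.25 over DIM 500 ppm (adjusted p = 0.000156). The difference from I3C lost its call without BNF sample 2 (1.46) and with the deposited signs of the turned arrays. It was also lost in limma with arrays scaled to one spread (2.78, adjusted p = 0.283), on the Cy5 arrays alone (0.90, adjusted p = 0.141) and with only these 2 diets fitted (adjusted p = 0.0857). For spots 1020303 and 1020304 the difference was 2.18 ± 0.36 over DIM 500 ppm (adjusted p = 0.00114). Over I3C 500 ppm it was 1.64, with a 95% interval of 0.88 to 2.40, and was not called (adjusted p = 0.110). In 8 of 20 other settings it was called, among them without I3C 500 ppm sample 2 (2.14, adjusted p = 0.0171) and without centring (1.76, adjusted p = 0.000578), and over all 20 it ran from 1.14 to 2.56 (adjusted p = 0.000578 to 0.99994).

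Against E2, whose dose was lower, both features were 2.90 higher in BNF, with adjusted p of 8.25e-06 for spots 10031205 and 10031206 and 0.000435 for spots 1020303 and 1020304. Against the mean of the other 5 diets they were higher by 1.73 ± 0.19 and 1.79 ± 0.28 (SE, adjusted p = 5.09e-05 and 0.000699).

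The 2 called features were each other's nearest match in pattern over the 12 RNA samples (Pearson r = 0.954). Over the 10 samples without BNF the correlation was 0.924. The next most alike features had r = 0.858 with spots 1020303 and 1020304 (spots 12010411 and 12010412, BNF mean -0.0051) and r = 0.845 with spots 10031205 and 10031206 (spots 10030313 and 10030314, BNF mean -0.18). Such a correlation takes no account of level or scale. Those 2 matches did not stand above the pool in BNF, and their means in I3C 1500 ppm were -0.35 and -0.18. All 12 values share the pool, and these correlations are given as a description.

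**Figure D2:**
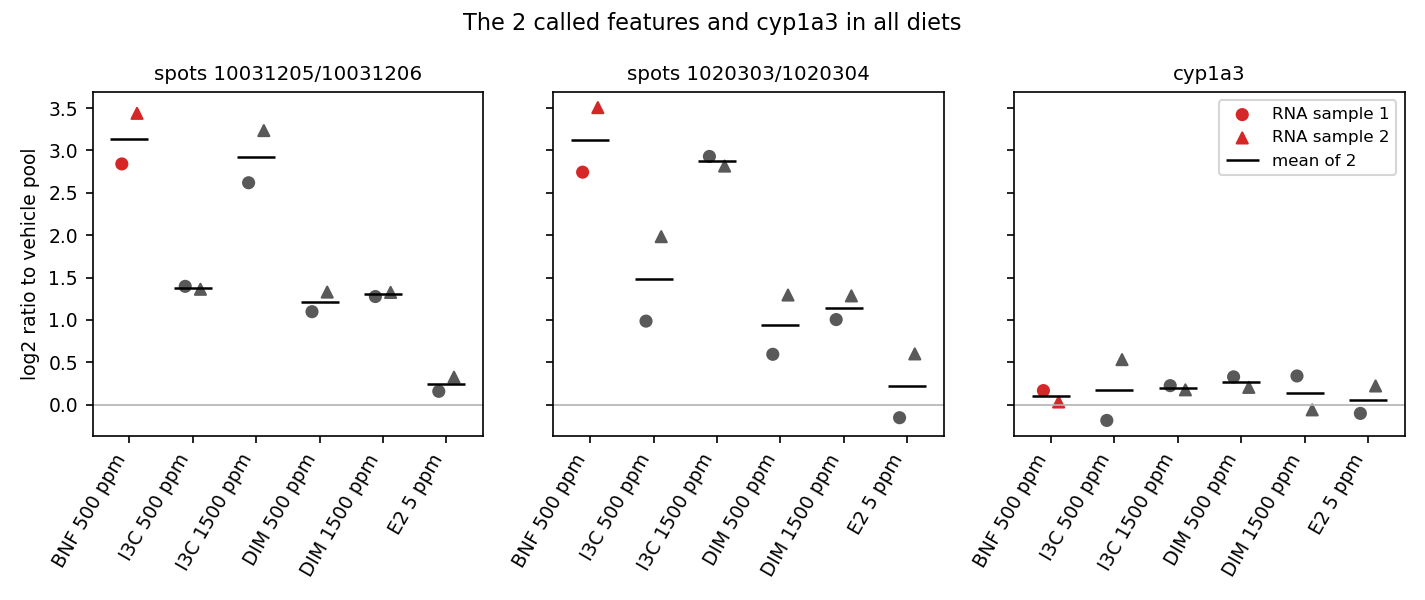
Log2 ratio to the vehicle pool (y axis, one scale for all panels) in the 2 RNA samples of each diet (x axis) for both called features and cyp1a3, with BNF in red and the mean of 2 samples as a bar. Both called features are highest in BNF and I3C 1500 ppm, at 0.94 to 1.48 on average in the other indole diets and near 0 in E2, while cyp1a3 stays near 0 in all diets.

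The feature annotated as cyp1a3 was not called. That annotation could not be checked here, since no probe sequence was used, so the values below are those of the spots that carry the name. Trout cyp1a3 encodes a CYP1A cytochrome P450 (the gene table gives CYP1A1 as its synonym) and was the only member of a list of 22 aryl hydrocarbon receptor battery genes that the annotation names. Its log2 ratio was 0.16 and 0.030 in the BNF samples, a mean of 0.098 with a 95% interval of -0.28 to 0.47 (limma adjusted p = 0.957). The other diets averaged 0.17 in I3C 500 ppm, 0.20 in I3C 1500 ppm, 0.26 in DIM 500 ppm, 0.14 in DIM 1500 ppm and 0.057 in E2, so no diet stood apart. The interval for BNF does not reach a 2-fold change in either direction.

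The dyes read opposite signs for cyp1a3 in the second BNF sample but not in the first. The arrays of the first sample read 0.068 in Cy3 and 0.26 in Cy5, and those of the second read -1.33 in Cy3 and 1.39 in Cy5. On the Cy5 arrays of BNF alone it would have been called higher (0.82, adjusted p = 0.0196), and on the Cy3 arrays alone it was -0.63 (adjusted p = 0.127). With the Cy5 arrays alone 1730 features were called against the pool, and with the Cy3 arrays alone 155. Dye and treatment cannot be told apart on arrays of a single dye.

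Below the 2 called features, the highest values were much smaller. Of features with 1 sign on all 4 arrays, the 15 highest ran from 0.41 to 3.14 and the 15 lowest from -1.28 to -0.73, all of them without a gene name here. Spots 11010305 and 11010306 came next after the called features (0.67 and 1.49 in BNF, mean 1.08, adjusted p = 0.479). In that feature E2 sample 2 read higher still, at 2.42, and every DIM sample and the I3C 1500 ppm samples were below -0.5. Spots 6040311 and 6040312 read 0.30 and 1.51 in BNF (mean 0.90), and spots 4030711 and 4030712 read 0.87 and 0.73 (mean 0.80), with adjusted p = 0.342 for both. The first of these was called without BNF sample 1 (1.51, adjusted p = 0.0187), and in the other the samples were close to each other. Both were called on either dye alone, and spots 4030711 and 4030712 also with all arrays fitted one by one (adjusted p = 0.0317). Over all features, the Cy3 arrays alone gave 155 calls and the Cy5 arrays alone 1730.

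At the low end, spots 9011307 and 9011308 read -1.23 and -1.34 in BNF (mean -1.28, adjusted p = 0.524). The 2 BNF samples were close, but the diets pooled for the error were not: I3C 500 ppm read -2.20 and -0.18 and DIM 500 ppm -1.60 and -0.078. With the arrays uncentred the feature was called at -1.64 (adjusted p = 1.49e-07), and on the Cy5 arrays alone at -1.22 (adjusted p = 0.0391). Spots 6030205 and 6030206, at -0.79 and -0.92 in BNF, were lower in every other diet too, from -1.81 to -0.23. They were called with all arrays fitted one by one (adjusted p = 0.0380), without centring (-1.21, adjusted p = 0.00135) and on the Cy5 arrays alone (-1.16, adjusted p = 0.00309). Over all features, 41 were called without centring, 39 of them lower, and 1730 on the Cy5 arrays alone.

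The 15 lowest features held 2 sets that varied alike over the 10 samples outside BNF, grouped after their values were seen by complete linkage at r = 0.7, and 6 features fell in each. In the first set (spots 4020413, 4020309, 5011307, 2030307, 6011307 and 3030405 with their neighbours, r = 0.72 to 0.995) BNF read -0.82 to -0.22 in sample 1 and -1.49 to -0.69 in sample 2. The same features read -2.98 to -1.24 and -3.10 to -1.92 in the DIM 500 ppm samples, and -0.75 to 0.048 and -0.97 to -0.35 in the I3C 500 ppm samples. As ranges over the set, BNF sample 2 overlapped both DIM 500 ppm sample 1 and the I3C 500 ppm samples, while DIM 500 ppm sample 2 lay below both BNF samples.

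The second set (spots 3040511, 1040401, 4041207, 6041205, 6010205 and 4040909 with their neighbours, r = 0.70 to 0.95) read -0.99 to -0.64 in BNF sample 1 and -1.02 to -0.57 in BNF sample 2. I3C 500 ppm ran from -0.72 to -0.27 in sample 1 and from 0.17 to 0.44 in sample 2, I3C 1500 ppm from -0.55 to -0.29 and from -1.18 to -0.62, and the DIM and E2 samples from -0.38 to 0.46. BNF was the only diet with both samples below -0.5 throughout this set, but I3C 1500 ppm sample 2 overlapped it. The set was drawn from the lowest BNF features, so low BNF values in it are largely fixed by the choice. None of either set was called in BNF (adjusted p = 0.342 or more), and all 6 of each were called without centring (adjusted p = 0.00393 or less). On the Cy5 arrays alone, 5 of the first set and 6 of the second were called (adjusted p = 0.0347 or less). Over all features, 41 were called without centring, 39 of them lower, and 1730 on the Cy5 arrays alone, 790 of them lower. Without centring the median of all features was -0.34. Both sets were drawn from the lowest BNF features, so their calls without centring are largely fixed by the choice.

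**Figure D3:**
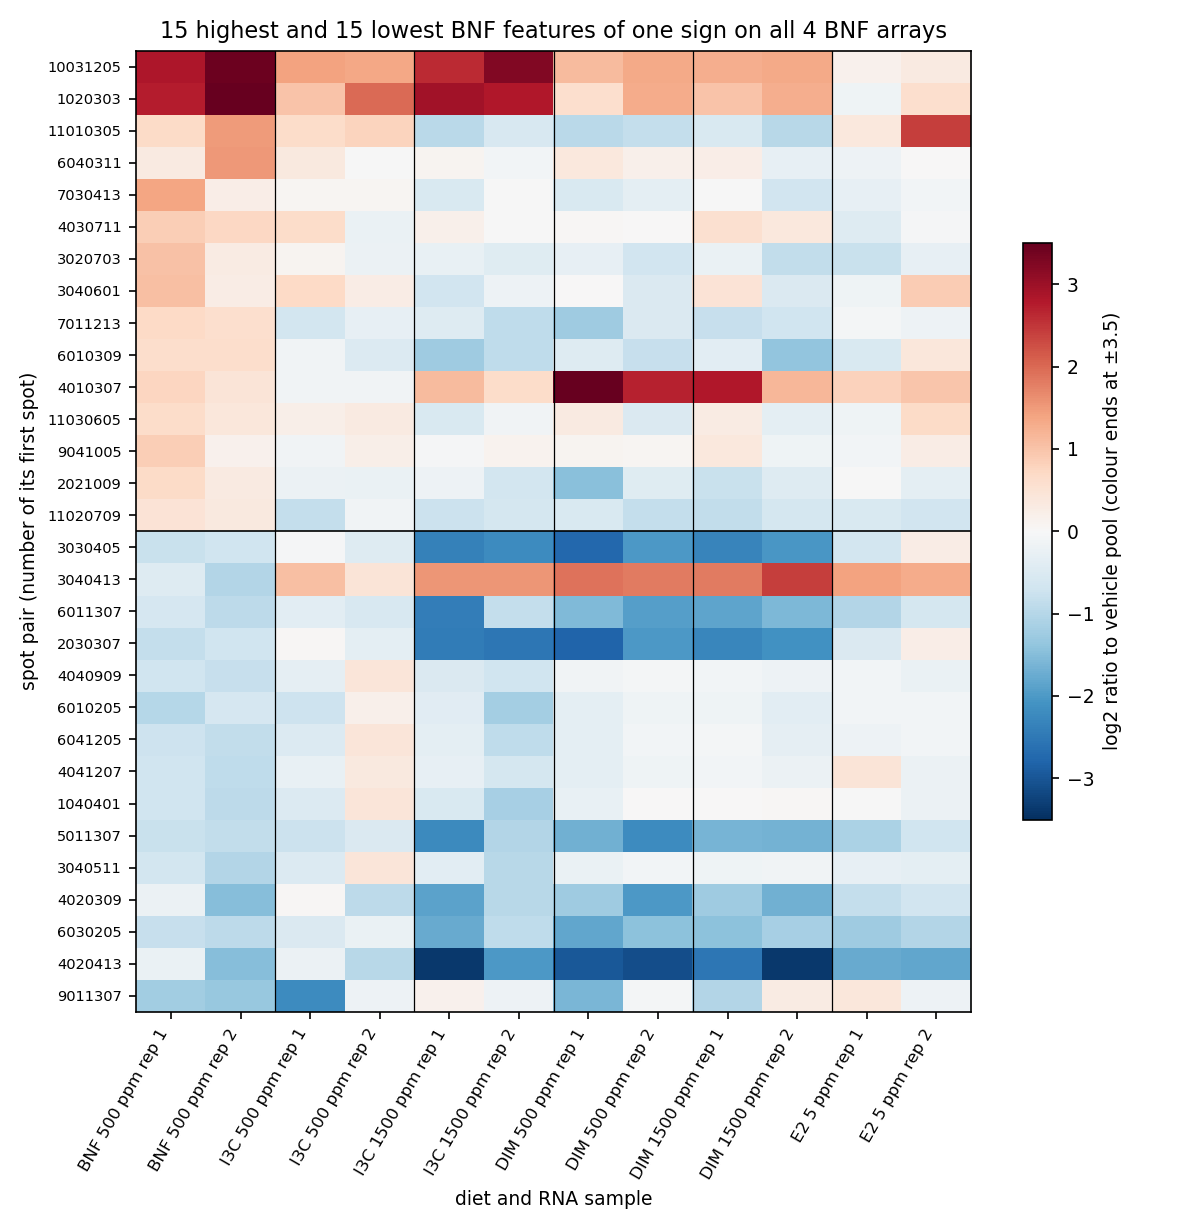
Log2 ratio to the vehicle pool (colour, red higher and blue lower, ending at ±3.5) of the 15 highest and 15 lowest BNF features with 1 sign on all 4 BNF arrays (rows, by first spot) in the 12 RNA samples (columns, BNF at left). The 2 called features are dark red in BNF and I3C 1500 ppm, spots 3040413 turn from blue in BNF to red in all other diets, and several rows that are pale blue in BNF are dark blue under DIM and I3C 1500 ppm.

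Among the 15 highest and 15 lowest features, 4 stood on the other side of 0 in BNF from all 10 other samples, 1 low and 3 high, a property picked after the values were seen. How many of all 4368 features share it was not counted. Spots 3040413 and 3040414 read -0.46 and -1.02 in BNF, against 1.05 and 0.44 in I3C 500 ppm, 1.56 and 1.53 in I3C 1500 ppm, 1.91 and 1.82 in DIM 500 ppm, 1.81 and 2.43 in DIM 1500 ppm, and 1.41 and 1.29 in E2. The groups did not overlap, as the choice fixes. The same choice favours the differences from other diets, so their adjusted p values are no separate support. The difference from the mean of the other 5 diets was -2.26 ± 0.21 (SE, adjusted p = 1.05e-05), and those from DIM 500 ppm (-2.60, adjusted p = 2.60e-05) and E2 (-2.09, adjusted p = 0.000484) were called too. Against the pool itself the BNF value of -0.74 was not called (adjusted p = 0.342), except without centring (-1.09, adjusted p = 0.00366) and on the Cy5 arrays alone (-1.13, adjusted p = 0.00317). Those settings called 41 and 1730 features in all, in that order.

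Higher in BNF and below 0 elsewhere were spots 7011213, 2021009 and 11020709 with their neighbours. Spots 7011213 and 7011214 read 0.71 and 0.59 in BNF, against -1.24 to -0.068 in the 10 other samples. Spots 2021009 and 2021010 read 0.67 and 0.30 in BNF, against -1.45 to -0.016, and spots 11020709 and 11020710 read 0.48 and 0.34, against -0.86 to -0.14. The groups did not overlap in any of the 3, as the choice fixes.

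Their differences from the mean of the other 5 diets were 1.23 ± 0.20, 0.96 ± 0.23 and 1.05 ± 0.18 (SE, adjusted p = 0.000870, 0.0215 and 0.00194). Being picked by their side of 0 favours these differences too, so they are no separate support. Against the pool itself none was called (adjusted p = 0.406, 0.714 and 0.697). Spots 2021009 and 2021010 lost the call against the other diets without BNF sample 1 (0.78, adjusted p = 0.320) or sample 2 (1.14, adjusted p = 0.0793), and spots 11020709 and 11020710 without BNF sample 1 (0.98, adjusted p = 0.0575).

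Genes with a name gave 0 calls of 49 against the pool, beside 2 of 4368 (0.0458%) over all features. Of the 49 features 26 were higher and 23 lower in BNF, with a median of 0.018, against a median of 0.010 over all features. They ran from -0.47 to 0.52, and 2 had an unadjusted p under 0.05. The larger of these was one feature of hspa8, which encodes the constitutive chaperone Hsc70: spots 2010211 and 2010212 read 0.46 and 0.59 in BNF (mean 0.52, adjusted p = 0.628). The array readings were -0.013 and 0.93 in the first sample and -0.33 and 1.51 in the second, Cy3 before Cy5, so both positive means came from Cy5 arrays, on which alone it was called (1.22, adjusted p = 0.00296). The Cy5 arrays alone gave 1730 calls over all features. A second hspa8 feature, spots 6020205 and 6020206, averaged -0.031.

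The lowest named feature was col1a2, a chain of type I collagen made by matrix-forming cells. Its spots 9020205 and 9020206 read -0.48 and -0.46 in BNF (mean -0.47 ± 0.15, limma SE, adjusted p = 0.560). Its array readings were -0.26 and -0.70 in the first sample and 0.21 and -1.14 in the second. On the Cy5 arrays alone it was called (-0.92, adjusted p = 0.00382), in a setting that called 1730 features in all. All 10 samples of the other diets were lower still, from -1.23 to -0.60. The differences from I3C 500 ppm (0.23), DIM 500 ppm (0.58) and E2 (0.39) were not called (adjusted p = 0.996, 0.187 and 0.564). The 2 features of sparc, a matrix glycoprotein, averaged -0.055 and -0.074 in BNF. In whole liver RNA, fewer cells of a type and less RNA per cell cannot be told apart.

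The other gene lists were thinly covered. The chaperone list had 5 features of 2 genes (3 higher and 2 lower, 0 called), with a median of 0.062 and a range of -0.033 to 0.52. The 2 features of sod1, the copper and zinc superoxide dismutase, averaged -0.14 and -0.074. The 3 features of plasma proteins made by hepatocytes, 2 of ambp and 1 of antiprot1, ran from -0.0091 to 0.17, and ambp encodes the precursor of α-1-microglobulin and bikunin. In lipid metabolism fd6d averaged -0.082 and the nuclear receptor pparg 0.20, and the ribosomal protein gene rps7 averaged -0.081. None of these was called. The lists of other cytochromes P450 and conjugating enzymes, of estrogen responsive genes, of glucose metabolism, and of immune and exocrine pancreas markers had 0 named features, so nothing can be said of them from the names. Ratios to a liver pool give no expression level, so the tissue label could not be checked against its markers.

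**Figure D4:**
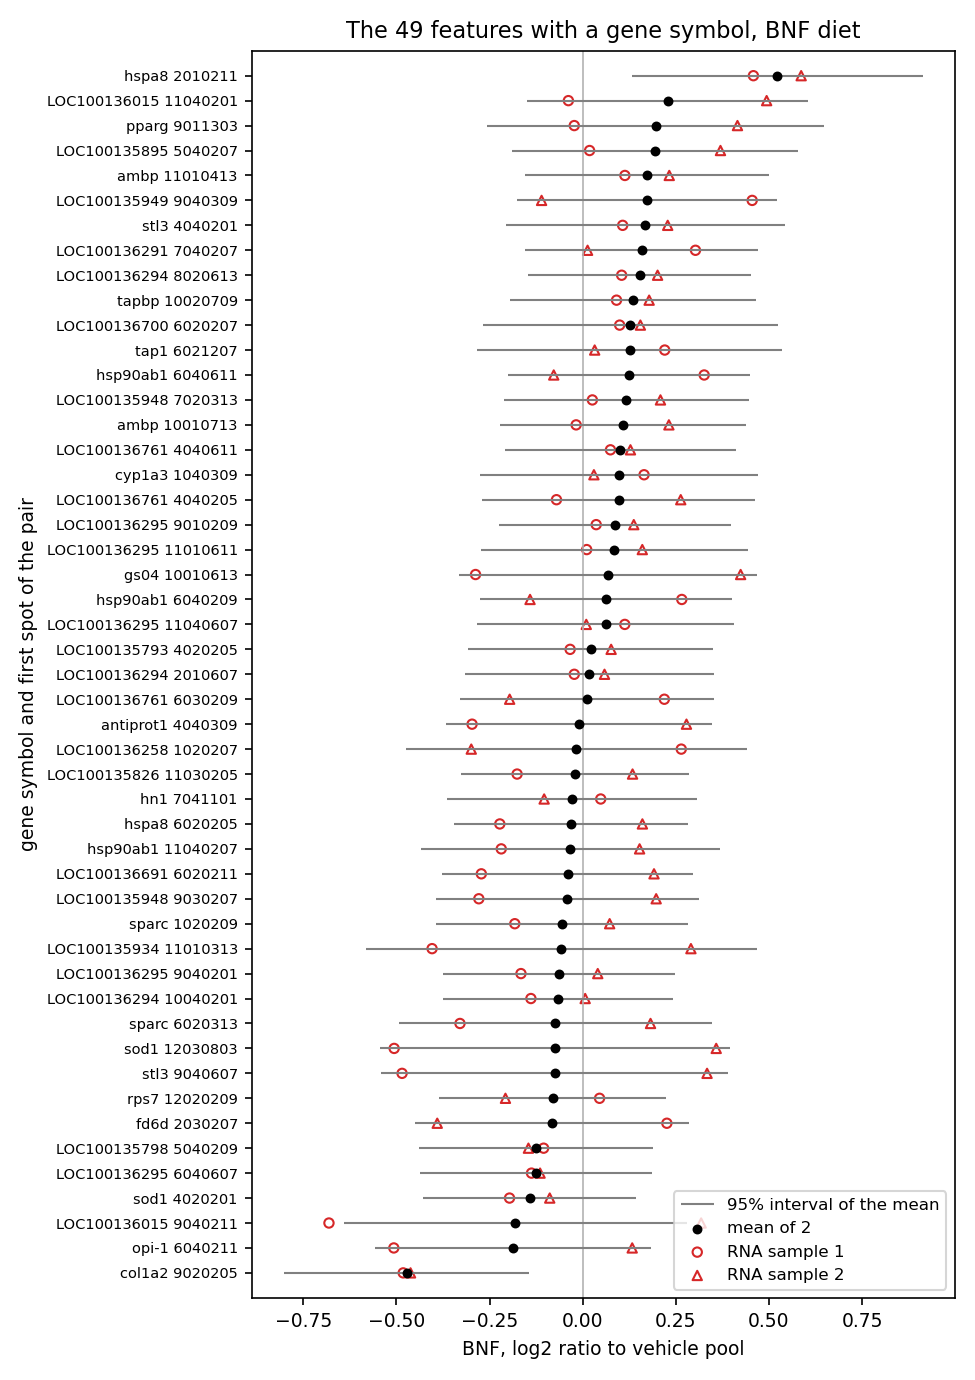
Log2 ratio to the vehicle pool under BNF (x axis) of the 49 features with a gene symbol (rows, with the first spot of the pair). Red symbols are the RNA samples, black points their mean and grey lines its 95% interval, and only hspa8 at the top (0.52) and col1a2 at the bottom (-0.47) have intervals clear of 0, neither of them called.

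Of the features called between BNF and other diets, most had BNF nearer to 0. Against DIM 500 ppm, 277 features were called (6.34%), 178 higher (4.08%) and 99 lower (2.27%) in BNF. In 270 of them BNF was nearer to 0 than DIM, with a median distance from 0 of 0.17 in BNF and 1.21 in DIM 500 ppm. Against E2, 125 were called (2.86%), 52 higher (1.19%) and 73 lower (1.67%), and BNF was nearer to 0 in 120 of them (median distance 0.24 in BNF and 1.04 in E2). Against the mean of the other 5 diets, 256 were called (5.86%), 148 higher (3.39%) and 108 lower (2.47%), and BNF was nearer to 0 in 240 (median distance 0.17 in BNF and 0.88 in the other diets). These counts describe the levels behind the calls and are not separate tests. The means of BNF spread least of all diets (SD 0.21, against 0.46 in DIM 500 ppm and 0.36 in E2). That spread by itself favours BNF being nearer to 0 where a difference from these diets is called. How often BNF was nearer to 0 among features not called was not counted, so no more is drawn from these counts.

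The split of those calls depended on the scaling. Without centring the counts were 47 higher and 95 lower against DIM 500 ppm, 18 and 47 against E2, and 53 and 95 against the other diets. With arrays scaled to one spread they were 36 higher and 32 lower against E2. With the 4 turned arrays at their deposited signs, 0 features were called in limma in each of the differences, with 68 at an unadjusted p under 0.05 against DIM 500 ppm, 35 against E2, 116 against the other diets and 77 against I3C 500 ppm. With the arrays turned, the unadjusted counts were 568 (13%) against DIM 500 ppm, 437 (10%) against E2, 682 (15.6%) against the other diets and 256 (5.86%) against I3C 500 ppm. Leaving out single samples gave 184 (BNF sample 1), 194 (BNF sample 2), 144 (DIM sample 1) and 163 (DIM sample 2) calls against DIM 500 ppm, and 66, 59, 65 (E2 sample 1) and 82 (E2 sample 2) against E2 in the same order. Without BNF sample 1 or 2 there were 139 or 129 calls against the other diets.

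Of the 3 single diets set against BNF, I3C 500 ppm gave the fewest calls, with 7 (0.16%), 1 higher (0.0229%) and 6 lower (0.137%) in BNF. Leaving out I3C 500 ppm sample 1 raised the count to 62, leaving out sample 2 gave 11, and scaling the arrays to one spread gave 0. The feature higher in BNF was spots 10031205 and 10031206, described above. Of the 6 lower ones, 3 were the features on which BNF parted furthest from all other diets.

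Those 3 features were among the strongest responses of the study and were near or below 0 in BNF. Spots 10020301 and 10020302 read -0.30 and 0.37 in BNF, against 4.30 to 5.27 in the 10 other samples. Spots 12020713 and 12020714 read 0.21 and 0.38 in BNF, against 4.05 to 5.24. Spots 12041011 and 12041012 read -0.61 and -0.72 in BNF, against 3.31 to 4.88. In none of these did any BNF sample come within 3 log2 units of another diet's sample. They were picked as the largest calls lower in BNF, which favours such a gap. The differences from the mean of the other 5 diets were -4.89 ± 0.20, -4.47 ± 0.17 and -4.63 ± 0.32 (SE), with adjusted p of 7.83e-10, 6.06e-10 and 7.70e-07 in limma. With the deposited signs of the turned arrays those differences were -2.90, -2.46 and -2.69 and none was called.

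The other 3 calls against I3C 500 ppm lie outside the naming rule for that difference and are given to complete the count. Spots 4020613 and 4020614 read -0.23 and 0.098 in BNF, against 1.90 and 2.45 in I3C 500 ppm (difference -2.24, adjusted p = 0.00845), and lost the call without BNF sample 1 (-2.07, adjusted p = 0.0798). Spots 6030211 and 6030212 read 0.079 and 0.26 in BNF, against 1.96 and 2.80 (difference -2.21, adjusted p = 0.0226), with no call without either BNF sample (adjusted p = 0.113 and 0.121) or without I3C sample 2 (adjusted p = 0.0994). For spots 3040413 and 3040414 the difference was -1.49 (adjusted p = 0.0380), with no call without BNF sample 2 (-1.20, adjusted p = 0.411) or without I3C sample 1 (-1.18, adjusted p = 0.0768). Over 20 other settings, spots 3040413 and spots 6030211 each kept the call in 11, and both lost it with arrays scaled to one spread (adjusted p = 0.807 and 0.814), while spots 4020613 kept it in 17. Without centring spots 3040413 and 3040414 were at -1.37 (adjusted p = 0.0532).

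The 3 largest calls higher in BNF than in DIM 500 ppm were features that read below -1 in that diet. Other named features also read below -1 in a diet where BNF lay higher. Spots 3010407 and 3010408 read -0.0028 and -0.58 in BNF, against -1.38 and -1.26 in I3C 500 ppm, -3.38 and -2.90 in DIM 500 ppm and -3.57 and -2.71 in E2. The difference was 2.85 ± 0.37 (SE) from each of DIM 500 ppm (adjusted p = 0.000189) and E2 (adjusted p = 0.000648). Spots 7040405 and 7040406 read -0.44 and -0.93 in BNF, against -3.56 and -3.51 in DIM 500 ppm (difference 2.85, adjusted p = 3.21e-06), and -0.46 and -0.83 in I3C 500 ppm. BNF overlapped the I3C 500 ppm samples there, while the DIM samples were far below. Spots 1010301 and 1010302 read -0.059 and 0.54 in BNF, against -2.36 and -2.54 in DIM 500 ppm (difference 2.69, adjusted p = 2.09e-05).

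Against the other 5 diets together, spots 9031205 and 9031206 (-0.62 and -0.52 in BNF, against -3.24 to -0.80) and spots 7020407 and 7020408 (-0.19 and -0.23 in BNF, against -3.11 to -0.84) differed by 1.99 ± 0.16 and 1.90 ± 0.16 (SE, adjusted p = 3.67e-06 and 6.53e-06). In both, all 10 other samples lay below the BNF samples.

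**Figure D5:**
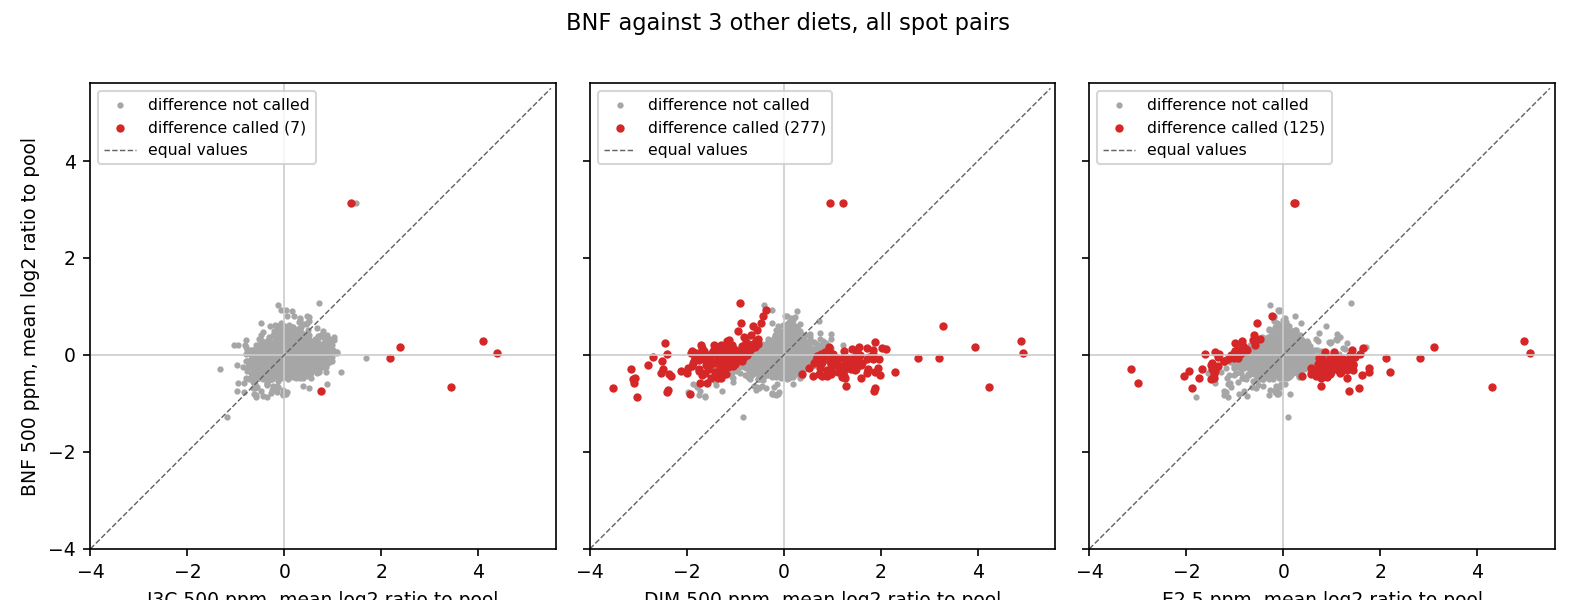
Mean log2 ratio to the vehicle pool of all 4368 features in BNF (y axis) against I3C 500 ppm, DIM 500 ppm and E2 (x axes), with features whose difference was called in red (7, 277 and 125). The red points lie along the horizontal line at 0 of BNF, reaching from -3.53 to 4.93 under DIM 500 ppm, and the 2 features near 3 in BNF stand alone above it.

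Among named genes, 6 of 49 features were called against DIM 500 ppm (12.2%, beside 6.34% of all features), 2 of 49 against E2 (4.1%, beside 2.86%), 6 of 49 against the other 5 diets (12.2%, beside 5.86%) and 0 against I3C 500 ppm. In each case the BNF value was near 0. Both ambp features read higher in BNF, at 0.11 and 0.23 for spots 11010413 and 11010414 and at -0.017 and 0.23 for spots 10010713 and 10010714. The same features read -1.33 and -0.85, and -1.29 and -0.93, in DIM 500 ppm. All 10 samples of the other diets were below the BNF samples in both features, at -0.21 or less. The ambp features and the named genes called below were picked by a difference between diets, which favours such an order.

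The ambp differences from DIM 500 ppm were 1.26 and 1.21 (adjusted p = 0.00160 and 0.00234), and those from the other 5 diets 0.82 and 0.79 (adjusted p = 0.00673 and 0.00930). Without DIM sample 1 the first pair of calls was lost (1.02 and 1.04, adjusted p = 0.0511 and 0.0612), and with its deposited signs the differences were -0.066 and -0.072. Without BNF sample 1 (0.88 and 0.92, adjusted p = 0.0650 and 0.0512) or BNF sample 2 (0.76 and 0.67, adjusted p = 0.136 and 0.228) those from the other 5 diets lost their call. The plasma protein feature antiprot1 read -0.30 and 0.28 in BNF and was 1.003 above DIM 500 ppm (adjusted p = 0.0160), a call that leaving out BNF sample 2 (0.72, adjusted p = 0.250) or either DIM sample (0.88 and 1.12, adjusted p = 0.199 and 0.0616) ended.

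The cytosolic chaperone hsp90ab1, a partner of the unliganded aryl hydrocarbon receptor, had 3 features. Spots 6040611 and 6040612 read 0.33 and -0.078 in BNF, against -0.996 and -1.04 in DIM 500 ppm and -0.82 and -0.72 in E2. Spots 6040209 and 6040210 read 0.27 and -0.14 in BNF, against -1.07 and -1.05 in DIM 500 ppm and -0.67 and -0.81 in E2. The BNF samples of these features lay above every DIM and E2 sample, and I3C 500 ppm sample 1 (-0.037 and -0.073) lay within their range. The third feature, spots 11040207 and 11040208, averaged -0.033 in BNF and was not called in any difference.

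The hsp90ab1 difference of spots 6040611 and 6040612 was 1.14 from DIM 500 ppm (adjusted p = 0.00328), 0.89 from E2 (adjusted p = 0.0361) and 0.76 from the other 5 diets (adjusted p = 0.0117). For spots 6040209 and 6040210 it was 1.12 from DIM 500 ppm (adjusted p = 0.00509), 0.68 from the other 5 diets (adjusted p = 0.0290) and 0.81 from E2, not called (adjusted p = 0.0820). The call against E2 was lost without any one of the BNF or E2 samples (adjusted p = 0.0600 to 0.393). Without BNF sample 1 the calls against DIM (0.94 and 0.92, adjusted p = 0.0629 and 0.0833) and the other diets (0.56 and 0.48, adjusted p = 0.313 and 0.469) were lost too. Spots 6040209 and 6040210 also lost them without DIM sample 1 (adjusted p = 0.0587) and, against the other diets, without BNF sample 2 (adjusted p = 0.0612).

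LOC100136761, for which no gene role is given here, had 1 feature apart from its other 2. Spots 6030209 and 6030210 read 0.22 and -0.20 in BNF, against 0.71 to 2.14 in the 10 other samples, and differed by -1.84 from DIM 500 ppm, -1.57 from E2 and -1.55 from the other 5 diets (adjusted p = 0.000113, 0.00128 and 5.72e-05). From I3C 500 ppm the difference was -0.78 (95% interval -1.26 to -0.30, adjusted p = 0.313). The other 2 features of this symbol were at 0.097 and 0.10 in BNF, and with all 3 averaged none of these differences was called (adjusted p = 0.132, 0.414 and 0.0721). The features of the symbol thus disagree, and with the deposited signs the differences from DIM 500 ppm and E2 were 0.051 and 0.19.

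The remaining call was LOC100135826, with CA2 (carbonic anhydrase 2, an enzyme abundant in red cells) as its synonym in the gene table. Spots 11030205 and 11030206 read -0.18 and 0.13 in BNF, against -0.86 to -0.42 in the other 10 samples, a difference of 0.64 from the mean of the other 5 diets (adjusted p = 0.0246). It lost the call without BNF sample 1 (0.79, adjusted p = 0.0677) or sample 2 (0.48, adjusted p = 0.425), and was -0.057 on the Cy5 arrays alone. A β-globin feature, LOC100136291 (synonym hbb4), averaged 0.16 in BNF and was not called. The part of red cells in this difference was not tested. Without centring, none of the named calls of ambp, antiprot1, hsp90ab1 or LOC100135826 held (adjusted p = 0.163 to 0.593).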

How the data were processed

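Per spot and array, 1 value was deposited by the authors. For its background correction, normalization and log base: not given in the sources used here. From the deposited values, 23 arrays hold log ratios, taken as log2 (were they natural logs, changes would be larger), and the first BNF array with treated RNA in Cy5 holds a linear ratio, of which log2 was taken. Per the labels, arrays were scanned on a ScanArray and read with QuantArray. No intensities were used, so dim spots were not filtered. Arrays were centred on their medians, neighbouring spots averaged and each sample computed as the mean of its 2 arrays after the swap was turned. E2 sample 1 and DIM 500 ppm sample 1 (4 arrays) were turned, since the dye component of each ran opposite to the rest (median r = -0.80 and -0.74). limma 3.58.1 in R 4.3.3 fitted 1 mean per diet to 12 samples with a pooled spread and eBayes. This fit was tested on simulated data. The turning rule was tested by flipping samples of the arrays as already turned, so that test cannot show which direction is true.

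Features named are every called one, the 15 highest and 15 lowest of 1 sign on all 4 BNF arrays, the 10 named genes with the smallest p, members of the gene lists, per difference the 3 largest calls each way and 3 named genes, and the 5 nearest patterns of each called feature. Further features given in differences were added after their values were seen: named genes called there, the remaining calls against I3C 500 ppm, both features called against the pool, and called features on the other side of 0 from all other samples. Members, lists and rules were chosen with earlier results of these data known. The gene table (assembly USDA_OmykA_1.1) holds 27 of 33 Entrez genes, and it gives hsp90ab1 for hsp90ba and hspa8 for hsc70a. Alternatives covered centring, scaling, the log base, single spots, the samples fitted, the turning, dyes, weights and a replicate block. Single samples of the diets compared were also left out. Probe sequences were not used here.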

Additional observations from a re-analysis of the deposited data

Results flagged for a closer look

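On the 4 BNF arrays, 2 of 54 named features had 1 array apart from the other 3 by Dixon's test at its 95% critical value, which chance gives in about 1 of 20 such groups. The feature opi-1 read 0.87 on the Cy5 array of sample 2, against -0.60 to -0.43 on the other 3. The feature antiprot1 read 0.73 on the Cy3 array of sample 2, against -0.30 to -0.17 on the others.

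The following log2 differences between BNF and another diet, by first spot of the pair or by gene, were past the limma threshold, so the responses to the diets differed by the test of the difference itself. Spots 10031205 and 1020303 were also chosen as called high in BNF. Spots 3040413, 7011213, 2021009 and 11020709 were chosen by their side of 0. Those choices favour a difference. BNF minus I3C 500 ppm was 1.76 for spots 10031205, -4.36 for 10020301, -4.10 for 12041011, -3.80 for 12020713, -2.24 for 4020613, -2.21 for 6030211 and -1.49 for 3040413.

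BNF minus DIM 500 ppm was 1.93 for spots 10031205, 2.18 for 1020303, 2.85 for 3010407, 2.85 for 7040405, 2.69 for 1010301, -4.90 for 10020301, -4.89 for 12041011, -4.61 for 12020713, -2.60 for 3040413, 1.53 for 7011213, 1.43 for 2021009 and 1.10 for 11020709. Among named genes it was -1.84 for LOC100136761, 1.26 and 1.21 for ambp, 1.003 for antiprot1, and 1.12 and 1.14 for hsp90ab1.

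BNF minus E2 was 2.90 for spots 10031205, 2.90 for 1020303, 2.85 for 3010407, -5.06 for 10020301, -4.97 for 12041011, -4.67 for 12020713, -2.09 for 3040413 and 1.01 for 11020709, and -1.57 for LOC100136761 and 0.89 for hsp90ab1. BNF minus the mean of the other 5 diets was 1.73 for spots 10031205, 1.79 for 1020303, 2.28 for 3010407, 1.99 for 9031205, 1.90 for 7020407, 1.23 for 7011213, 0.96 for 2021009, 1.05 for 11020709, -4.89 for 10020301, -4.63 for 12041011, -4.47 for 12020713 and -2.26 for 3040413. Among named genes it was -1.55 for LOC100136761, 0.82 and 0.79 for ambp, 0.68 and 0.76 for hsp90ab1, and 0.64 for LOC100135826.
Where leaving out a sample ended such a call among spots 2021009 and 11020709, the difference from DIM 500 ppm was 1.25 and 1.03 without BNF sample 1, 0.92 for spots 2021009 without DIM sample 1 and 0.95 for spots 11020709 without DIM sample 2. For spots 11020709 minus E2 it was 0.94 to 1.08 with any one BNF or E2 sample left out (adjusted p = 0.0953 to 0.217).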

How the results depend on the processing

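Without centring, 41 features were called in BNF against the pool, 142 against DIM 500 ppm, 65 against E2 and 148 against the other 5 diets. With arrays scaled to one spread there were 0 calls against I3C 500 ppm (257 at an unadjusted p under 0.05) and 68 against E2, and with single spots tested 67 against E2. Fits of only the diets compared gave 4 against I3C 500 ppm and 41 against E2. Arrays fitted one by one gave 6 against the pool and 24 against I3C 500 ppm, array weights 13 against I3C 500 ppm, and regressing out the dye profile 30. That regression with BNF sample 1 from its Cy3 array alone, chosen after seeing the data, gave 4 against the pool and 27 against I3C 500 ppm. Leaving out the turned samples gave 164 against DIM 500 ppm and 52 against E2. The Cy3 arrays of BNF alone gave 155 against the pool, 246 against I3C 500 ppm, 583 against DIM 500 ppm, 207 against E2 and 736 against the other diets, and the Cy5 arrays alone 1730, 13, 491, 660 and 1638 in that order. The cause of these changes was not tested.

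With the deposited signs of the turned arrays, the limma fit gave 0 calls against I3C 500 ppm, DIM 500 ppm, E2 and the other diets, with 77, 68, 35 and 116 at an unadjusted p under 0.05. BNF minus DIM 500 ppm was then -0.53 for spots 3010407, -0.71 for 7040405, 0.43 for 12020713, -0.025 for 2021009, 0.051 for LOC100136761, -0.066 and -0.072 for ambp and -0.13 for antiprot1. BNF minus E2 was -0.72 for spots 3010407, 0.20 for 10020301, 0.35 for 12020713 and 0.19 for LOC100136761. LOC100135826 read 0.67 against the pool on the Cy3 arrays alone and -0.057 minus the other diets on the Cy5 arrays alone.

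Leaving out 1 sample at a time gave 4 calls each time against the pool, 6 to 62 against I3C 500 ppm, 144 to 194 against DIM 500 ppm, 59 to 82 against E2 and 129 to 139 against the other diets. Samples left out were those of the diets compared, and for the pool and the other diets only those of BNF. With the replicate number as a block there were 2 calls against the pool, 8 against I3C 500 ppm, 268 against DIM 500 ppm, 114 against E2 and 241 against the other diets. Spots 1020303 minus I3C 500 ppm were then called in limma (adjusted p = 0.00984) while hsp90ab1 minus E2 was not (adjusted p = 0.0522). Whether the numbers pair the samples is not settled here. Deviations of same-numbered samples correlated at -0.60 to 0.46, over 0.1 in 6 of 15 pairs of diets. The lowest was between E2 and DIM 1500 ppm and the highest between E2 and I3C 500 ppm. What the samples share behind these values was not tested. With 2 samples per diet and 1 pool, precision is set by the number of RNA samples, and no signal over background was used.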

Other observations

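The feature farthest from 0 on each single BNF array, apart from the 2 called ones, was not called over both samples. Spots 7031007 and 7031008 read 4.61 on the Cy3 array of sample 1, with both spots high (3.33 and 5.90), and -0.083, 0.51 and -0.94 on the others. Spots 4040209 and 4040210 read 4.24 on the Cy5 array of sample 2, from 1 spot alone (8.42 beside 0.060), and -0.23, -0.16 and -0.63 on the others. Spots 8020713 and 8020714 read 2.51 on the Cy3 array of sample 2, with spots at 4.70 and 0.32. Spots 12010609 and 12010610 read -2.04 on the Cy5 array of sample 1, with spots at -0.15 and -3.93. Their BNF means of 1.03, 0.81, 0.62 and -0.60 were not called (limma adjusted p = 0.619, 0.660, 0.714 and 0.850).

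Of the 256 features called between BNF and the mean of the other 5 diets, 16 lay farther from 0 in BNF than in the other diets, which include both features called against the pool. Spots 6010309 and 6010310 read 0.60 and 0.61 in BNF, against -1.38 to 0.39 in the other 10 samples, a difference of 1.19 ± 0.26 (SE, adjusted p = 0.00995). In spots 1030309 and 1030310, also among the 16, the BNF samples lay apart, at 1.72 and 0.13. What these features encode is not annotated in the tables used here.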
